A study of Homo sapiens with 6 samples.

Results

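The genes described here are those of the untreated G401 cells, a malignant rhabdoid tumor line without SMARCB1, that could be read for H3K4me3 over input. Cells were kept in DMSO for 3 days and processed for ChIP-seq, with 1 library of H3K4me3 and 1 of input, which is chromatin sequenced without an antibody. The table held read counts for 56638 genes. A gene was kept when its input counts in DMSO and in MAK683 summed to at least 100, which left 21263 genes (37.5%) holding 96.4% of the H3K4me3 reads and 98.8% of the input reads of DMSO. MAK683, a PRC2 inhibitor that acts through EED, was given to parallel cells of the same line at 3 µM for 3 days. Those cells enter only through their input in the choice of genes and as a second pair of libraries. G401 is 1 cell line, and each antibody and treatment had 1 library, so there was no replicate check and no p-value was computed.

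H3K4me3 is trimethylation of lysine 4 of histone H3. It sits on nucleosomes next to the start sites of active and poised genes, is written by the KMT2 and SETD1 methyltransferase complexes and removed by the KDM5 demethylases, and is read by the PHD fingers of proteins such as ING1 and TAF3. Promoters rich in CpG dinucleotides tend to carry it, in part because CXXC domain proteins bring the SETD1 complexes to unmethylated CpG. At promoters of developmental regulators it can lie together with H3K27me3, the mark of PRC2.

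To show the sequences that such a signal sits on, 200 bases before the RefSeq start of 6 genes were taken, written 5′ to 3′ on the gene's strand, with capitals marking each CG dinucleotide, which reads the same on both strands. MSX1 and FOXD2 are shown because they were among the developmental factors with the highest values, SIX2 and HOXA13 because they had promoters as rich in CpG and no H3K4me3 above the level of input, and the keratins KRT34 and KRT26 because they were the lowest of their family. Positions are on hg19 (GRCh37). The windows are chr4:4861192-4861391 (plus strand) for MSX1, chr1:47903516-47903715 (plus) for FOXD2, chr2:45236592-45236791 (minus) for SIX2, chr7:27239711-27239910 (minus) for HOXA13, chr17:39538559-39538758 (minus) for KRT34 and chr17:38928454-38928653 (minus) for KRT26.
MSX1: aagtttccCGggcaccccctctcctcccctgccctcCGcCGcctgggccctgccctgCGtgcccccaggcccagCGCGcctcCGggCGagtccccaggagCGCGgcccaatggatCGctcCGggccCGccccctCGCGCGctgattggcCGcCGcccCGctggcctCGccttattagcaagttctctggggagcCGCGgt
FOXD2: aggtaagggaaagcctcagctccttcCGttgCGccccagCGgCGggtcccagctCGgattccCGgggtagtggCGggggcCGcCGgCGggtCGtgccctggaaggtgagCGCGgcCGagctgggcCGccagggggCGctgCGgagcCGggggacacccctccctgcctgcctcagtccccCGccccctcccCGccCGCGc
SIX2: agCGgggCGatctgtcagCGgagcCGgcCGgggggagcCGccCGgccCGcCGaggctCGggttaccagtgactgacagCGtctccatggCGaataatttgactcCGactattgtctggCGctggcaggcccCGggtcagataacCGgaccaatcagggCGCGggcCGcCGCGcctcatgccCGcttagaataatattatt
HOXA13: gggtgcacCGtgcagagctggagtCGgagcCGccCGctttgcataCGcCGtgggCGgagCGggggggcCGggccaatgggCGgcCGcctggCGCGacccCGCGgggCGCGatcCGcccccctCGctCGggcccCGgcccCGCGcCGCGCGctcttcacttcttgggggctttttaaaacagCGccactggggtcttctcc
KRT34: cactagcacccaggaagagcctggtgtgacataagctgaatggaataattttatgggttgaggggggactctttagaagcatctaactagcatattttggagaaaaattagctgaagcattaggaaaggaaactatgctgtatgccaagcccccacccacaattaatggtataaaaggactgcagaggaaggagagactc
KRT26: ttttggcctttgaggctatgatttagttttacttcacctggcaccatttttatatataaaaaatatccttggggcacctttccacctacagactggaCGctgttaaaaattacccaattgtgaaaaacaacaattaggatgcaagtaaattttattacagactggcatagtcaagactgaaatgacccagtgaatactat

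The window of MSX1 held 22 CG dinucleotides, as did those of FOXD2 and SIX2, and the window of HOXA13 held 27. KRT26 had 1 and KRT34 had 0. Among 35116 RefSeq promoter windows of 200 bases the median was 9, 19.3% held at least 22, 9.07% held at least 27 and 8.02% held none. MSX1 had 2828 H3K4me3 and 54 input counts, and FOXD2 had 1483 H3K4me3 and 46 input counts. SIX2, a factor of kidney progenitors, had 37 and 56, HOXA13 had 65 and 68, KRT34 had 34 and 78 and KRT26 had 29 and 74. The promoters of SIX2 and HOXA13 thus held at least as many CpG as those of MSX1 and FOXD2, but these 2 genes were not above input. Their log2 of H3K4me3 over input was -0.92 and -0.40, against -1.51 for KRT34 and -1.65 for KRT26. The counts cover whole genes and not only the windows shown. HOXA13 is a HOX cluster gene, and the starts of those genes were mostly covered by other genes, so its value is uncertain.

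The 6 ChIP-seq libraries held between 13308099 and 21281877 counts, with 21281877 for H3K4me3 and 16837480 for input in DMSO. SMARCB1 had 2 H3K4me3 counts and 0 input counts in DMSO, and 0 of each in MAK683. In DMSO 19745 genes of the table had no input count, so 0 counts alone do not show that a gene is lost. Counts were scaled to their column totals as CPM (counts per 1000000) and compared as log2((H3K4me3 CPM + 0.05)/(input CPM + 0.05)). Single ratios have 95% intervals after Clopper and Pearson, exact for the counts, and these leave out all error but that of counting. The median gene had 325 input counts in DMSO, and the median interval spanned 1.34-fold from its lower to its upper bound. Of the 21263 genes, 516 had fewer than 50 DMSO input counts, and their intervals spanned a median of 2.31-fold.

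Over all 21263 genes the median log2 of H3K4me3 over input was -0.25, and 9311 genes were above input. At least 2-fold over input were 5141 genes (24.2%), 4518 of which (87.9%) also had the lower bound of the interval above 2. At least 2-fold under input were 2993 genes (14.1%). Values ran from -2.65 to 5.64, with a 10th percentile of -1.08 and a 90th of 2.09, so the upper side was far more spread than the lower. The lower side depended on the scale. The 4391 genes with at least 1000 input counts had a median ratio of 0.678. Taking that as the level of input would raise every log2 by 0.56, and 165 genes would then be at least 2-fold under input and 7333 at least 2-fold over. Genes just inside the limit of 100 input counts (100 to 109, 410 genes) had a median of -0.30 with 29.5% at least 2-fold over input, and those just outside (90 to 99, 424 genes) had -0.24 with 30.7%.

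**Figure D1:**
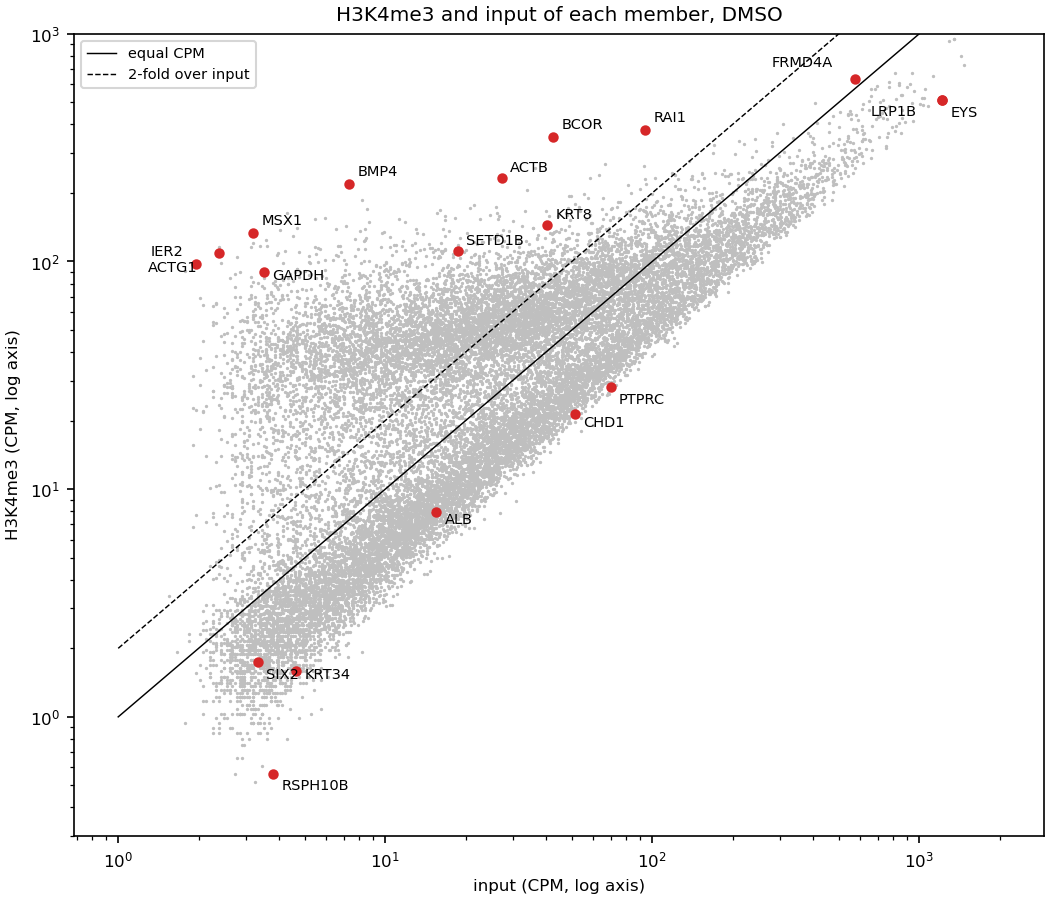
H3K4me3 against input of each gene in DMSO, both in CPM on log axes, 1 gray point per gene, with lines at equal CPM and at 2-fold over input, and with named genes in red. One body of points, with EYS, LRP1B, CHD1, PTPRC, ALB and SIX2, runs below the line of equal CPM at any input, and a second, with IER2, MSX1, BMP4, BCOR and SETD1B, lies above the line of 2-fold.

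A ratio over a whole gene is diluted in long genes, because a promoter adds reads that do not grow with length while the background does. For this reason a second value was used. Net H3K4me3 is the H3K4me3 CPM minus 0.678 times the input CPM, and a gene was called when its net was at least 5 CPM and the lower bound of its ratio lay above 0.678. By this measure 10109 genes (47.5%) carried H3K4me3. Of the net summed over genes with a positive value, 41.9% lay in the highest 10% of genes, and 2769 genes (13.0%) held 50% of it.

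The dilution was large. For 16229 genes with a length in GENCODE 44 on GRCh37, quintiles by length had a median log2 of 1.05 (up to 12.6 kb), 1.08, 0.61, 0.08 and -0.58 (110 kb and longer). The share at least 2-fold over input was 50.4% in the shortest quintile and 1.26% in the longest. The share called by net was 53.2, 63.3, 65.5, 64.5 and 42.5% over the same quintiles. Of 9380 genes called by net, 4608 (49.1%) were not 2-fold over input, and this was 5.85% in the shortest quintile and 97.0% in the longest. Across these 9380 genes, which share both libraries, length had a Spearman rho of -0.80 with the ratio and of 0.00 with net. Across all 16229 genes with a length, called or not, rho was -0.38 with the ratio and -0.17 with net, so net also fell with length there. The difference of 1.63 between the shortest and the longest quintile became 0.98 with at least 50 input counts, 0.32 with MAK683 input counts in place of length, and -0.12 when each gene with at least 1 input count was included, which adds many short genes with few counts.

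In long genes the net value rests on the background factor. The factor is itself the median ratio of the genes with at least 1000 input counts. The longest quintile had a median of 2045.5 input counts, so most of its genes entered that median. The share called there is thus largely set by the choice of factor and cannot show whether net is free of length. With the 25th percentile of the same 4391 genes as factor (0.536) the longest quintile had 65.5% called, with the 10th percentile (0.476) 78.2%, and with a factor of 1 it had 14.7%. In the shortest quintile the corresponding values were 54.7, 55.1 and 50.9%. FRMD4A, a FERM domain scaffold protein of 818 kb (chr10:13685706-14504141, minus strand), had 13425 H3K4me3 and 9691 input counts and a ratio of 1.1 (95% interval 1.07 to 1.13). Its net was 241 CPM, 322 with the 25th percentile, 357 with the 10th and 55.3 with a factor of 1, so it was called by each of them although its ratio was near 1. KMT2C, a histone methyltransferase of 302 kb, had 3978 H3K4me3 and 4424 input counts and moved from 8.76 CPM to 46.1, 61.8 and -75.8, so its call rests on the factor. BCOR, the BCL6 corepressor of a PRC1 complex, had 7471 H3K4me3 and 715 input counts over 128 kb and stayed between 309 and 331 CPM.

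The genes with the largest ratios were short. C17orf96, which codes for a protein bound to PRC2, had 1942 H3K4me3 and 30 input counts, a ratio of 51.2 (95% interval 35.8 to 76.1) and a log2 of 5.64. IER2, an immediate early gene (chr19:13261225-13265725, plus strand), followed with 2069 and 33 counts and 49.6-fold (95% interval 35.2 to 72.3). IRF2BPL, a nuclear protein with a RING domain, had 2460 and 40, and ACTG1, cytoplasmic gamma actin, had 2312 and 40. The rest of the 10 highest were MSX1, the zinc finger cofactor ZNF703, the growth factor signalling inhibitor SPRY1, the segmentation clock repressor HES7, the homeobox gene DLX2 and a gene with a clone name, RP11-229C3.2. Their ratios lay between 36.6 and 41.4, and the intervals of all 10 overlapped, so their order was within counting error.

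High ratios went with low input counts in DMSO. Summed over the 200 genes with the highest log2, the DMSO input was 86.9% of the MAK683 input in CPM, against 100.0% over all genes and 98.2% over the 200 genes with the highest net. Over both inputs summed, the log2 was 4.78 for C17orf96, 5.05 for IER2 and 5.17 for MSX1. The part of low input counts in the order of the ratios was not tested further.

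Ranked by net, genes of any length came up. BCOR was first with 322 CPM and RAI1, a chromatin-bound regulator, second with 313 CPM from 8023 H3K4me3 and 1587 input counts. They were followed by FRMD4A, the TALE homeobox repressor TGIF1 (5467 and 612 counts, net 232 CPM), the LIM homeobox gene LMX1B (5715 and 1121, 223 CPM) and the zinc finger factor GLIS3. GLIS3 spans 524 kb and had a ratio of only 1.22, with a net of 221 CPM. This order holds for the factor of 0.678. With the 10th percentile as factor FRMD4A (357 CPM) lay above RAI1 (332) and BCOR (331), and GLIS3 went to 304 CPM with that factor and to 90.2 CPM with a factor of 1. The signalling ligand BMP4 had 4655 H3K4me3 and 123 input counts, a ratio of 29.9 and a net of 214 CPM, so it was high on both scales. ACTB, cytoplasmic beta actin, had 4939 and 459 counts and 214 CPM, the melanocyte and osteoclast regulator MITF 6878 and 2878 and 207 CPM, and the transcriptional coregulator SERTAD2 5598 and 1563 and 200.1 CPM.

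At the low end, RSPH10B, a radial spoke protein of cilia whose near-identical copy RSPH10B2 can take part of its reads, had 12 H3K4me3 and 64 input counts, a ratio of 0.148 (95% interval 0.0729 to 0.277) and the lowest log2, -2.65. Of the 10 lowest genes, 6 carry clone names and the others include the noncoding RNA genes LINC00433, LINC00690 and EDNRB-AS1. All 10 had fewer than 100 DMSO input counts, so these extremes are the least precise values. The lowest net values were those of very long genes. EYS, a photoreceptor matrix protein of 1987 kb, had 10878 H3K4me3 and 20463 input counts and a ratio of 0.421 (95% interval 0.411 to 0.43), and LRP1B, an endocytic receptor of 1900 kb, had 10923 and 20419 and 0.423 (95% interval 0.413 to 0.433). The receptor phosphatase PTPRD and the catenin CTNNA3 had ratios of 0.494 and 0.449. EYS and LRP1B had a negative net under each of the background factors.

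H3K4me3 followed the CpG content of the start. In 300 bases around the gene start of the GENCODE annotation (250 before to 50 after), the CpG observed over expected was computed. This was done for 14823 protein-coding genes, which were cut into quintiles. These starts are not the RefSeq starts of the sequences shown above. From the lowest to the highest quintile the median log2 was -0.64, -0.13, 0.43, 0.62 and 0.65, and the share called by net was 31.1, 50.9, 68.8, 75.7 and 79.4%. The windows of the lowest quintile held a median of 3 CpG and those of the highest 36. Within the shortest quintile by length the median log2 went from -0.60 to 2.57 and the share called from 18.8 to 87.0%. Within the longest quintile it went from -0.72 to -0.41, and the share called from 33.9 to 55.0%. The difference between the highest and the lowest quintile was thus 3.17 in the shortest genes and 0.30 in the longest on the log2 scale.

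CpG content did not settle the call. In the 2 shortest length quintiles, 919 of 1028 genes in the highest CpG quintile were called (89.4%), and 109 were not. The start of 36 of those 109 genes (33.0%) lay wholly within other genes of the annotation, against 50 (5.44%) of the called ones. In the lowest CpG quintile of the same lengths, 345 of 1377 genes (25.1%) were called. There the start was wholly covered more often in the called genes, in 89 (25.8%), than in the 1032 that were not called, in 134 (13.0%). Over all lengths, protein-coding genes whose start was covered by no other gene had a median log2 of 0.23 with 62.4% called (10799 genes), those whose start was partly covered had 0.43 with 71.0% called (2002 genes), and those whose start was wholly covered had -0.27 with 44.7% called (2024 genes). Covered starts thus did not go with lower values throughout. Reads of a promoter shared with a neighbor cannot be assigned to one gene by position, and ChIP-seq reads carry no strand of the RNA, so a low value of an overlapped gene is uncertain.

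Gene lists were then described by their counts. Over all genes, 24.2% were at least 2-fold over input, 14.1% at least 2-fold under input and 47.5% called by net. These include 5034 genes without a match in the annotation, of which 14.5% were called. Among the 14825 protein-coding genes, 31.2% were at least 2-fold over input, 9.78% at least 2-fold under and 61.2% called. Lists made mostly of protein-coding genes are to be read beside the latter shares. To allow for length, the difference of each gene from the median log2 of genes in the same twentieth by length was taken as the length-adjusted difference. It is given for some of the lists, and the other values are not adjusted for length. The lists were drawn up with results of these data known, and the values describe them without a test.

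**Figure D2:**
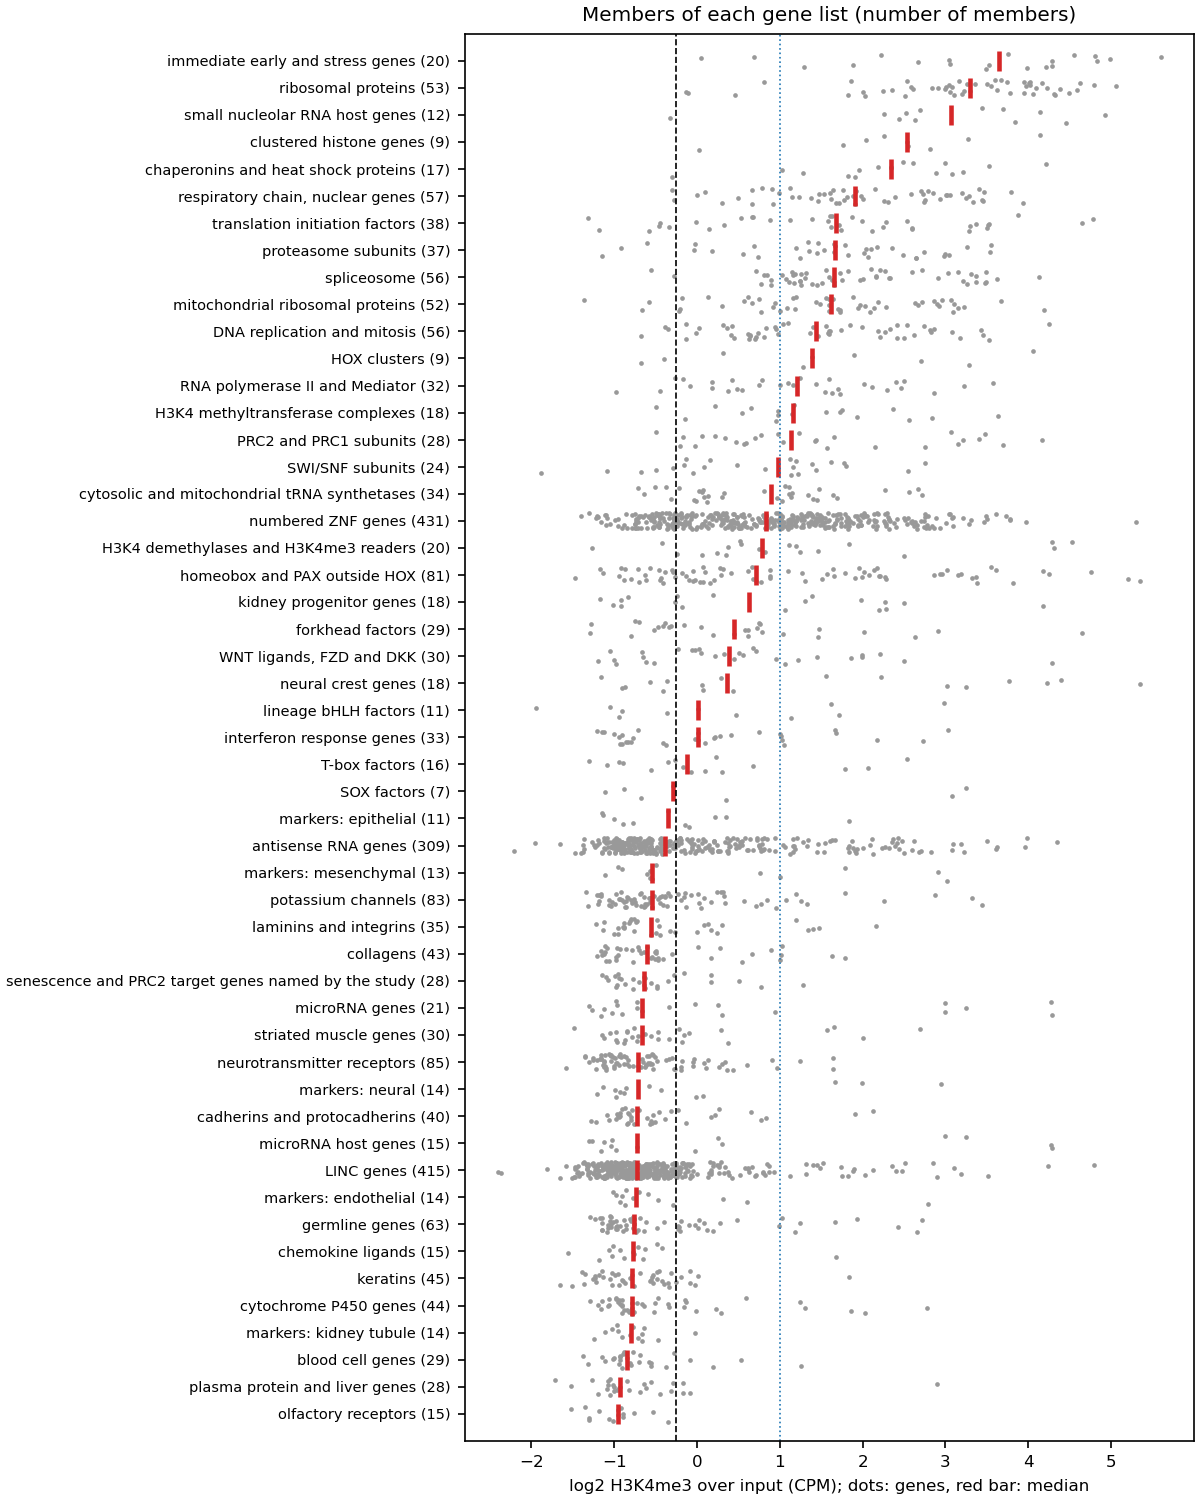
Log2 H3K4me3 over input of the members of each gene list, 1 point per gene, with the list's median as a red bar and the number of members in parentheses, ordered by median. Immediate early genes (median 3.64), ribosomal proteins (3.30) and small nucleolar RNA host genes (3.07) are at one end, and olfactory receptors (-0.96) and plasma protein genes (-0.93) at the other.

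Genes that every cell uses carried H3K4me3 almost throughout. Over 10 lists, 410 of 432 genes (94.9%) were called by net, 314 (72.7%) were at least 2-fold over input and 4 (0.93%) at least 2-fold under. The median log2 was 1.73 and the median length-adjusted difference 0.80. Ribosomal proteins led with 52 of 53 called, a median log2 of 3.30 and a median length of 8.41 kb. RPL8 had 1468 H3K4me3 and 34 input counts and 34.2-fold (95% interval 24.3 to 49.5), RPL13A had 1644 and 46, and RPL3 had 2417 and 96 with the highest net of the list, 109.7 CPM. RPL3L, a paralog of RPL3 used in striated muscle, had 184 H3K4me3 and 160 input counts, a ratio of 0.91 (95% interval 0.732 to 1.13) and no call. The paralogs RPL3 and RPL3L thus lay at opposite ends of the family.

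The other lists of this kind had lower medians at greater lengths. Chaperonins and heat shock proteins had a median log2 of 2.34 with 17 of 17 called, nuclear genes of the respiratory chain 1.91 with 57 of 57, and translation initiation factors 1.67 with 34 of 38. HSPA8, the constitutive cytosolic HSP70, had 1917 H3K4me3 and 81 input counts, and EIF5A, an elongation and termination factor, had 1737 and 54 with 25.4-fold (95% interval 19.4 to 34). Proteasome subunits had 34 of 37 called, with 1403 and 95 counts for the core subunit PSMA7. PSMA8, the testis paralog of PSMA7, had 393 H3K4me3 and 688 input counts, a ratio of 0.452 (95% interval 0.398 to 0.512) and no call. Spliceosome genes had a median log2 of 1.65 and 54 of 56 called, and mitochondrial ribosomal proteins 1.62 and 48 of 52. Replication and mitosis genes had 54 of 56 called, among them the licensing factor CDT1 (1531 and 63 counts), the mitotic activator CDC20 (1034 and 70) and the clamp protein PCNA (1581 and 172). Cytosolic and mitochondrial tRNA synthetases had the lowest ratio of these lists, a median log2 of 0.89 at a median length of 40.3 kb, with 30 of 34 called.

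The 22 genes of these lists that were not called differed from the called ones in the overlap of their starts. Their start was covered by no other gene in 5 (22.7%), against 71.4% of the called genes with a start, and wholly covered in 6 (27.3%), against 10.6%. MRPS28, a mitochondrial ribosomal protein with no unshared span, had 237 H3K4me3 and 484 input counts. PSMB8, the interferon-induced proteasome subunit, had 38 and 46. The reference genes used in many assays were all called. GAPDH had 1917 H3K4me3 and 59 input counts with 25.7-fold (95% interval 19.8 to 33.9), B2M had 1169 and 95, EEF1A1 2479 and 112, TBP 954 and 228 and PGK1 942 and 421, and HPRT1 had a ratio of 1.25 (95% interval 1.1 to 1.42).

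Immediate early and stress genes had the highest median of the lists. Of 20 genes, 18 were at least 2-fold over input and 20 were called by net, with a median log2 of 3.64 and a length-adjusted difference of 2.58. After IER2 came CYR61, a secreted matrix protein, with 1802 and 44 counts, DUSP6, a phosphatase of ERK, with 2757 and 76, and MYC with 3266 and 92, 28.1-fold (95% interval 22.8 to 34.9) and the highest net of the list, 149.8 CPM. CDKN1A, the p21 inhibitor of the cell cycle, had 2426 H3K4me3 and 141 input counts. FOSL2 had 587 H3K4me3 and 288 input counts, and EGR2, a zinc finger factor of nerve sheath and hindbrain, had 1756 H3K4me3 and 1341 input counts with a ratio of 1.04 (95% interval 0.964 to 1.11). The H3K27me3 log2 over the same input was 1.49 for EGR2, -1.81 for IER2 and -1.73 for MYC.

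Host genes of small nucleolar RNAs were alike, with 11 of 12 at least 2-fold over input, 12 called and a median log2 of 3.07. SNHG6 had 1371 H3K4me3 and 35 input counts, SNHG12 1320 and 47 and SNHG1 1418 and 63. SNHG14, the host transcript of the imprinted region next to SNRPN, spans 442 kb and had 3410 and 3368, a ratio of 0.801 (95% interval 0.764 to 0.84) and a net of 24.6 CPM. Of 9 clustered histone genes among the 21263, 8 were at least 2-fold over input and called, with HIST4H4 at 1159 and 51 counts and HIST1H2BK at 1063 and 86. HIST2H2BB had 72 and 56 and no call.

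The writers of the mark were all called. Of 18 genes of the H3K4 methyltransferase complexes, 10 were at least 2-fold over input and 18 had a net of at least 5 CPM. CXXC1, the CpG-binding subunit of the SETD1 complexes, had 1159 H3K4me3 and 73 input counts and 12.6-fold (95% interval 9.91 to 16.1). The catalytic subunits SETD1B and SETD1A had 2356 and 315 and 1656 and 388 counts, with net values of 98 and 62.2 CPM. KMT2B had 1177 and 281, KMT2D 1539 and 551 and KMT2A 2036 and 1022, while KMT2C was below input by ratio as given above. Of the subunits that all complexes share, WDR5 had 1401 and 376, RBBP5 1237 and 503, ASH2L 1137 and 457 and DPY30 871 and 348, with ratios between 1.95 and 2.95. MEN1, the menin subunit of the KMT2A and KMT2B complexes, had 1099 and 121 and 7.19-fold (95% interval 5.95 to 8.74).

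Among 20 erasers and readers, 19 were called and 9 were at least 2-fold over input. The readers ING1 and ING2 had 2348 and 80 and 1969 and 79 counts, with 23.2-fold (95% interval 18.6 to 29.4) and 19.7-fold (95% interval 15.7 to 25). DIDO1 had the highest net of the list, 139 CPM from 3665 H3K4me3 and 814 input counts, followed by the CXXC demethylase KDM2B with 133 CPM from 4579 and 2045. Of the KDM5 erasers, KDM5B had 2813 and 974 counts, KDM5C 874 and 250 and KDM5A, the longest at 109 kb, 1883 and 1425 with a ratio of 1.05 (95% interval 0.975 to 1.12). CHD1, the chromodomain remodeler that binds H3K4me3, was the exception, with 453 H3K4me3 and 863 input counts, a ratio of 0.415 (95% interval 0.37 to 0.466) and a negative net under each background factor. KDM1A fell short of the limit, with 8 input counts beside 635 of H3K4me3 in DMSO.

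Polycomb and SWI/SNF genes were similar. Of 28 PRC2 and PRC1 subunits, 27 were called and 15 were at least 2-fold over input. EZH2, EED and SUZ12 had 2009 and 926, 1428 and 480 and 1365 and 779 counts, and net values of 57.1, 47.8 and 32.8 CPM. PCGF1 had 1170 H3K4me3 and 51 input counts with 18.2-fold (95% interval 13.7 to 24.5), and JARID2, at 276 kb, was the uncalled subunit, with 3148 and 3515 and a net of 6.37 CPM. That net passed 5 CPM, but the lower bound of its ratio did not lie above 0.678, so the missing call of JARID2 rests on the factor. Of 24 SWI/SNF subunits 19 were called, led by ARID1A (3344 and 1202 counts, net 109 CPM) and ARID1B (6412 and 5250, 89.9 CPM). SMARCE1 had 16 H3K4me3 and 49 input counts, with 10.1% of its span unshared, and PBRM1 had 765 H3K4me3 and 1280 input counts with a ratio of 0.473 (95% interval 0.432 to 0.518) and a net that stayed below 0 for each factor. SMARCA2, the BRM ATPase, had 1648 and 2088 with a ratio of 0.624 (95% interval 0.585 to 0.666), and its H3K27me3 log2 over input was 1.30.

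Developmental regulators divided widely. Over 8 lists, 66 of 172 genes (38.4%) were at least 2-fold over input and 94 (54.7%) were called by net. Their median log2 was 0.38 against -0.25 over all genes. At a median length of 14.8 kb their median length-adjusted difference was -0.01, so as a set they did not lie above genes of like length. The median H3K27me3 log2 over the same DMSO input was 0.49 in these genes and -0.75 over all genes. Both marks were divided by 1 input library, so their values are given side by side and no relation between them is given as a result.

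The homeobox and PAX genes outside the HOX clusters made the largest such list. Of 81 genes, 36 were at least 2-fold over input, 50 were called and 3 were at least 2-fold under, with a range of log2 from -1.47 to 5.35. Of the DLX genes, which pattern the jaw, limbs and forebrain, DLX1, DLX2 and DLX3 were among the highest. DLX2 had 2223 H3K4me3 and 47 input counts, DLX1 2324 and 67 and DLX3 2114 and 87, with H3K27me3 log2 values of -2.07, -0.27 and -0.84. DLX4 had 1244 and 83 and was called, and DLX5 had 76 and 49 with a log2 of 0.29 and was not. By net the order was LMX1B, MEIS2 (5194 and 2576 counts, 140.3 CPM) and PAX2 (3900 and 1249, 133 CPM). At the other end SIX3, a factor of the eye and forebrain, had 29 H3K4me3 and 65 input counts, MEOX2 375 and 669 and LHX8 219 and 381, with ratios of 0.353, 0.444 and 0.455.

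In the HOX clusters only 9 of 39 genes reached 100 input counts, and 16 had no input count. Of the 9 genes, 6 were at least 2-fold over input. Their starts were covered by other genes to a median of 81.3%, against 0.0% over all genes, so low values among them are uncertain. HOXB13 had 1218 H3K4me3 and 57 input counts, HOXC13 1194 and 96 and HOXB7 1415 and 171, with H3K27me3 log2 values of -1.18, -1.06 and 1.5. HOXB7 was therefore over input in both marks. HOXA13 and HOXD10 had 65 and 68 and 119 and 151 counts, ratios of 0.756 (95% interval 0.53 to 1.08) and 0.624 (95% interval 0.486 to 0.798), and H3K27me3 values of 0.97 and 1.25.

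G401 came from a kidney tumor, and genes of the kidney progenitor were mixed. Of 18 genes, 9 were at least 2-fold over input and 11 were called, with a median H3K27me3 log2 of 0.87. PAX2, LHX1 (1161 and 50 counts, 18.4-fold (95% interval 13.8 to 24.9)), WNT11 (1993 and 278, 5.67-fold (95% interval 5.0 to 6.45)) and MEOX1 (1711 and 279) were high, where SIX2, EYA1 (1166 and 1870, ratio 0.493 (95% interval 0.458 to 0.531)) and MEOX2 were low. LHX1 had an H3K27me3 log2 of 1.32, and PAX2 one of -0.70. Neural crest genes gave 10 of 18 called. Besides MSX1 the nuclear receptors NR2F1 and NR2F2 had 2457 and 92 and 2845 and 164 counts and the repressor SNAI1 1609 and 67, while ZIC1 had 661 and 1169, TWIST1 739 and 1094 and PAX3 808 and 1168, with ratios of 0.447, 0.534 and 0.547.

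Forkhead genes had 14 of 29 called. FOXD2 had a ratio of 25.5 (95% interval 19 to 35), and FOXA1, a pioneer factor of endoderm, had 731 H3K4me3 and 76 input counts with an H3K27me3 log2 of 2.02. FOXF2 had 265 and 51 counts, a ratio of 4.11 (95% interval 3.04 to 5.66) and an H3K27me3 log2 of 3.02. FOXP2, at 607 kb, was low by ratio and by net, with 3394 and 6528 counts. SOX8 had 883 and 73 and SOX4 544 and 50, with H3K27me3 values of 0.43 and 2.85, so SOX4 was over input for both marks. The starts of the 7 SOX genes were covered by other genes to a median of 85.1%, so low values among them are uncertain. Of 16 T-box genes 5 were called, with 1984 and 376 counts for TBX1 and 295 and 577 for TBX20. Of 11 lineage bHLH genes 4 were called, among them NEUROD2 (794 and 79 counts, H3K27me3 log2 2.40) and TWIST2 (1846 and 476, -0.36), and the muscle factor MYOG had 18 and 57 with a ratio of 0.25 (95% interval 0.138 to 0.431).

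Genes of other tissues had little H3K4me3. Over 12 lists, 87 of 479 genes (18.2%) were called, 35 (7.31%) were at least 2-fold over input and 113 (23.6%) at least 2-fold under, with a median log2 of -0.75. None of 15 olfactory receptors was called, with log2 values from -1.52 to -0.35, and 1 of 45 keratins was. That keratin was KRT8, a filament protein of simple epithelia, with 3074 H3K4me3 and 682 input counts, 3.57-fold (95% interval 3.28 to 3.88) and a net of 117 CPM. Its partner KRT18 had 867 H3K4me3 and 35 input counts and missed the limit on input. Of 28 plasma protein and liver genes 2 were called, APOC1 (639 and 67 counts, 7.55-fold (95% interval 5.86 to 9.86)) and CP (773 and 648), while albumin had 169 and 261 and hemopexin, HPX, 65 and 170. Of 29 blood cell genes the T cell coreceptor CD8A was called, with 927 and 306 counts and 2.4-fold (95% interval 2.1 to 2.74), and the pan-leukocyte phosphatase PTPRC had 595 and 1177 with 0.40.

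Single genes of these families departed from the rest. Of 15 chemokine genes CXCL16 was called (315 and 77 counts, 3.24-fold (95% interval 2.52 to 4.21)), and of 44 cytochrome P450 genes 8 were, with CYP26A1, which degrades retinoic acid, at 717 and 82 and CYP3A4, the main drug-metabolizing enzyme of liver, at 206 and 365. Striated muscle genes gave 7 of 30, with the sarcomeric actinin ACTN3 at 1377 and 168 and titin, TTN, at 356 and 614. Potassium channels gave 27 of 83, with KCNJ2 at 1863 and 135, and neurotransmitter receptors 13 of 85, led by the adrenergic receptor ADRA1B at 2891 and 731. GABRA4, a GABA receptor subunit, had 383 H3K4me3 and 909 input counts and a ratio of 0.333 (95% interval 0.295 to 0.376). Cadherins and protocadherins gave 9 of 40, at a median length of 111 kb. CDH4 had a ratio of 0.912 and a net of 111 CPM over 688 kb, and PCDH15 had 0.429 and -214 CPM over 1825 kb. Germline genes gave 18 of 63, and the meiotic gene SYCP1 had 951 and 1761 counts.

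The marker lists of cell types were mostly near input. Of 13 mesenchymal markers 5 were called, with the intermediate filament VIM at 908 and 95 counts, S100A4 at 643 and 62, COL1A1 at 1176 and 269, COL3A1 at 1154 and 457 and PDGFRB at 1316 and 616. FN1 had 602 and 924, COL1A2 277 and 474 and ZEB1 1752 and 2046. COL1A1 and COL1A2, whose chains form type I collagen, thus differed, with ratios of 3.46 (95% interval 3.03 to 3.96) and 0.462 (95% interval 0.397 to 0.537). Epithelial markers gave 3 of 11, KRT8, CDH1 (1559 and 1062) and EPCAM (849 and 527). Neural markers gave 4 of 14, led by the tubulin TUBB3 at 1929 and 198. Endothelial markers gave 3 of 14, led by EGFL7 at 1033 and 118, and CDH5 and KDR, which define that cell type, had 324 and 489 and 290 and 451. Of 14 genes listed as kidney tubule markers, which include the podocyte gene PODXL, PODXL was called (933 and 752) and no tubule gene was, with 209 and 272 for UMOD. No list of markers was called throughout.

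Matrix and signalling genes lay in between. Of 43 collagens 12 were called at a median length of 150.2 kb. COL11A1 had the highest net, 139 CPM from 5174 H3K4me3 and 2575 input counts, and COL12A1 had 825 and 1504 with a ratio of 0.434 (95% interval 0.398 to 0.473). Laminins and integrins gave 13 of 35, with the beta-1 integrin ITGB1 at 2489 and 742 counts and the laminin chain LAMA2 of muscle at 3978 and 7307. WNT ligands, their FZD receptors and their DKK and SFRP inhibitors gave 21 of 30, with a median log2 of 0.39 and a median length-adjusted difference of -0.02. Of the receptors FZD5 had 2303 H3K4me3 and 93 input counts and 19.6-fold (95% interval 15.9 to 24.4), FZD1 355 and 60 and FZD7 270 and 53. Of the ligands WNT11 and WNT5B had 1993 and 278 and 2450 and 1178, and WNT2 233 and 369. Of the inhibitors DKK2 had 2095 and 3791 and SFRP2 76 and 125. The inhibitor DKK1 had 2003 H3K4me3 and 50 input counts and missed the limit on input, with 99 counts over both inputs. Interferon response genes gave 18 of 33, with a median log2 of 0.01 and a median length-adjusted difference of -0.58. The regulators IRF3 (814 and 78 counts) and IRF1 (884 and 105) were called, and of the induced genes IFIT5 (357 and 88) and UBE2L6 (1024 and 254) were called and IFI27 (98 and 170) and GBP3 (101 and 178) were not.

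The study named a set of senescence and PRC2 target genes from these cells in its text or among its qPCR targets, so that their position here is not independent evidence. Of 34 such genes in the table, 2 had no input count and 4 fell below 100 over both inputs, which left 28. Among genes that the study names, CDKN2A and MMP10 had 0 H3K4me3 and 0 input counts in DMSO. HLA-B had 62 and 27, so none of these genes is covered here. Of the 28 genes 7 were called and 1 was at least 2-fold over input, with a median H3K4me3 log2 of -0.64 and a median H3K27me3 log2 of 1.07. Their median length was 94.2 kb and their median length-adjusted difference -0.53. The study described most of its upregulated genes with high H3K27me3 as also positive for H3K4me3. It showed the marks around start sites, whereas the counts here cover whole genes, so the measures are unlike. HOXD13 had 149 H3K4me3 and 48 input counts, a ratio of 2.46 (95% interval 1.76 to 3.48) and an H3K27me3 log2 of 2.58. GATA3 and GATA4 had 586 and 270 and 1063 and 1067 counts, with H3K27me3 values of 1.62 and 2.11. TBX3 had 172 and 200, IL6 44 and 70 and IGFBP3 166 and 117, and none of these 3 was called. The basement membrane collagens COL4A1, COL4A2, COL4A4, COL4A5 and COL4A6 had ratios between 0.451 and 0.639. FBN1 had the highest net, 25.5 CPM from 3069 and 2947 counts, with an H3K27me3 log2 of -0.99.

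Zinc finger genes numbered as ZNF were the largest family. Of 431 genes 318 (73.8%) were called and 194 were at least 2-fold over input, with a median log2 of 0.83 at a median length of 27.1 kb. ZNF703 had 2085 H3K4me3 and 41 input counts and an H3K27me3 log2 of 0.85, ZNF608 the highest net of 163 CPM from 4629 and 1360, and ZNF217 3270 and 380. ZNF840 had 43 and 91 with a ratio of 0.374 (95% interval 0.254 to 0.543), and none of its span was unshared.

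Noncoding genes were lower on the whole. Of 415 LINC genes 57 were called and 98 were at least 2-fold under input, with a median log2 of -0.73. LINC00657, also known as NORAD, had 1351 H3K4me3 and 56 input counts, LINC00324 1361 and 38 and LINC00963 1785 and 322. Of 309 antisense genes 119 were called. CAPN10-AS1 had 1059 and 52 counts and HOXC-AS3 1042 and 52, but reads of such a gene and of its partner cannot be told apart at a shared start. Of 15 microRNA host genes 5 were called, MIR17HG (1962 and 79 counts, 19.6-fold (95% interval 15.7 to 24.9)), the host of the miR-17 cluster, MIR22HG (1638 and 66), MIR4458HG (850 and 70) and MIR210HG (331 and 32) being the highest. MIR155HG had 80 and 154 and MIR137HG 386 and 683.

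The pair of libraries from MAK683-treated cells gave a second reading of the same genes under another treatment. At least 2-fold over input were 4800 genes in that pair and 5141 in DMSO, and 9952 genes were called by net against 10109. Across 21263 genes, whose lengths and background are common to both, the log2 values had a Spearman rho of 0.93. MSX1 had a log2 of 5.35 in DMSO and 4.69 in MAK683, BCOR 3.05 and 2.35, KRT8 1.83 and 1.70, SIX2 -0.92 and -0.51, and HOXA13 -0.40 and 0.64. The treatment and the library cannot be told apart in such pairs.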

How the data were processed

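ChIP-seq of H3K4me3 and input from G401 cells in DMSO was analysed. Per the study's methods the reads were trimmed with Trim Galore 0.4.4, aligned to hg19 with Bowtie2, passed through Picard 2.23.6 and counted with featureCounts. The authors deposited whole-number counts per gene, which do not carry the Drosophila spike-in scaling that their methods describe. The annotation used for counting is not given in the sources used here.

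Counts were divided by column totals, and lengths, overlaps and starts came from GENCODE 44 on GRCh37, with 62.3% of the table matched by symbol. The promoter sequences shown, and the promoter windows they were compared with, came from RefSeq. The windows for CpG observed over expected were placed at the GENCODE starts. A pseudocount of 0.05 CPM, a fold of 2 and a net of 5 CPM were used (Python 3.11.15, numpy 2.4.6, pandas 2.3.3, scipy 1.17.1, pysam 0.24.0, matplotlib 3.10.9). Depth was 21281877 and 16837480 counts, and 3 counts equal 0.141 CPM of H3K4me3 and 0.178 CPM of input. The computation was tested on simulated data. Named genes were the 10 highest and lowest by ratio, the 10 highest by net, the ends of long genes and of each gene list, reference genes and all genes of the H3K4 and marker lists. The gene set and the lists were chosen with earlier results of these data known. Other pseudocounts, inputs, scales, filters and background factors were tried. Some genes that this rule selects are not reported here.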

Additional observations from a re-analysis of the deposited data

Results flagged for a closer look

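Genes with fewer than 100 counts in both inputs together were outside the comparisons above. Of 35375 such genes, 1248 (3.53%) had a net of at least 5 CPM and were at least 2-fold over input. Unlike the call by net above, this rule used no lower bound of the ratio, and genes without an input count could pass it. The highest by net were the short genes ADM, a vasodilator peptide, with 2281 H3K4me3 and 46 input counts in DMSO, the kinase PIM3 with 2280 and 45, OAZ1, an inhibitor of polyamine synthesis, with 2158 and 45, and the cytokine signalling inhibitor SOCS3 with 2077 and 43. Among the 1248 were 43 clustered histone genes. Of 89 histone genes in the table, 80 lay below the limit on input and 9 of the 89 had no input count.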

How the results depend on the processing

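No paired analysis was possible because each antibody and treatment had 1 library. The count of genes called by net (10109) stayed within 1.5 times under each alternative, from 7958 with a background factor of 1 to 12724 with the 10th percentile, a factor chosen after seeing the data. The count at least 2-fold over input (5141) stayed within 1.5 times except with at least 1 input count (7815) and with a fold of 4 (2306). The count at least 2-fold under input (2993) became 7608 with at least 1 input count, 876 when scaled by the median of ratios, 165 when scaled to the background of long genes, 1497 with at least 50% of the span unshared, 1684 on autosomes only, 1832 in the MAK683 pair, 7903 with a fold of 1.5 and 14 with a fold of 4. The autosome and span filters also drop genes without a match in the annotation. The difference between the shortest and the longest quintile (1.63) was 0.98 with at least 50 input counts, 1.93 with at least 200, 0.32 with MAK683 input counts in place of length, and reversed to -0.12 with at least 1 input count. The difference between CpG quintiles (1.30) was 1.22 with a pseudocount of 1 CPM, 1.21 with at least 200 input counts, 1.39 with at least 1, 1.07 in the MAK683 pair, 1.45 for starts covered by no other gene, and 3.17, 2.26, 1.55, 0.97 and 0.30 within the length quintiles. Of 51 lists, 27 had a median above that of all genes, and 23 to 31 had so under the alternatives. SOX, T-box and lineage bHLH factors, interferon response genes and noncoding lists were among those that changed side. The log2 of SFRP2, -1.05, reversed to 0.56 in the MAK683 pair, and no other named gene called by ratio changed sign. Where no cause is given by the alternative itself, the cause was not tested. Depth limits single short genes, whose intervals spanned a median of 2.31-fold below 50 input counts.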

Other observations

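Gene types differed. Protein-coding genes (14825) had a median log2 of 0.20 with 61.2% called by net, long noncoding RNA genes (905) -0.61 with 25.3%, pseudogenes (484) -0.67 with 16.9%, and genes with clone names (4749) -0.73 with 13.3%. Chromosomes differed as well, together with the length of their genes. Chromosome 19, rich in short genes and in ZNF clusters, had the highest median log2 (0.90) at a median length of 18.5 kb, followed by chromosome 16 (0.60, 28.0 kb) and chromosome 17 (0.52, 23.2 kb). The lowest were chromosome 13 (-0.42, 46.3 kb) and chromosome 4 (-0.35, 56.7 kb). The median length-adjusted difference was 0.29 on chromosome 19, 0.26 on 16 and 0.18 on 17, against -0.34 on 13 and -0.20 on 4. The part of copy number and of overlapping genes in these values was not tested.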
